A study of Mus musculus with 18 samples.

Results

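The cytosolic ribosomal proteins, the building blocks of the large and small subunits of the ribosome, were examined in the livers of mice on normal chow, on a high-fat diet and on a high-fat diet with an alkaloid extract. Members were all protein-coding genes whose symbol begins with Rpl or Rps followed by a digit, together with Rplp0, Rplp1, Rplp2 and Rpsa, without the Rps6k kinases and without symbols that hold -ps. Coordinates of genes are those listed with the data, on GRCm38. The rule took 86 of the 54532 genes listed, of which 52 were assigned to the large subunit and 33 to the small subunit by their symbols. This assignment by symbol includes Rpl7l1, a nucleolar relative of Rpl7. The remaining gene, Rps19bp1, encodes a protein that binds Rps19 and is not part of the ribosome, although its symbol fits. A mean of at least 1 FPKM (fragments per kilobase of transcript, scaled to the depth of the library) was reached by 80 members, and these were tested among the 10216 genes that reached it.

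Liver RNA from 18 male C57BL/6 mice (C57BL/6J in the study's methods) was sequenced, 6 in each of 3 groups. The mice were 6 weeks old when they arrived. NC mice ate normal chow and served as lean controls. HFD mice ate a high-fat diet for 14 weeks and were then given saline with the diet continued, whereas SZ-A mice ate the same diet and then received Ramulus Mori (mulberry twig) alkaloids for 6 weeks by the methods or 8 weeks by the series text. The dose and route for the sequenced mice are not given in the sources used here. The NC6 label names both the chow group and a high-fat diet, and this mouse was kept in NC by its title. Each library came from whole liver of a separate mouse, so fewer cells of a type and less RNA per cell cannot be told apart.

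A ribosome carries a single copy of most of its proteins, and the proteins are made in step with the ribosomal RNA. Messages of ribosomal proteins begin with a C followed by a run of pyrimidines at their very 5′ end, the terminal oligopyrimidine (TOP) motif, through which mTORC1 and Larp1 adjust their translation to nutrients. In mammals almost every ribosomal protein is encoded by a single functional gene with introns, and the genome also holds a large number of processed copies, which share most of the message sequence. A few proteins have a second, expressed paralog, such as Rpl22l1 beside Rpl22.

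Between 17163191 and 20493907 fragments were assigned to genes in each liver. No library was a repeat of another in the 45 pairs of libraries compared, which are not all pairs of the 18 libraries. Hepatocyte markers were high in every library, with a summed level of 30044 to 63520 FPKM over 7 genes. NC1 stood apart within its group, because its median ribosomal protein gene was 0.19 log2 units below the gene's mean over the 18 mice, whereas the other NC mice were 0.05 to 0.34 above. Where the call of a member described singly changes without NC1, or without another single mouse, this is given with it.

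Start sites of 6 members and of the Rps27 pair are shown because they hold pyrimidine tracts of different length and place near the annotated start. The base at the annotated start is a C in all of these except Rpl27a and Rpl22l1. Each window covers 10 bases before and 20 from the annotated start, read 5′ to 3′ on the gene's strand, and comes from RefSeq on GRCm38.p6. Capitals mark a C followed by at least 4 further C or T bases.
Rpl27a, chr7:109519185-109519214, plus strand: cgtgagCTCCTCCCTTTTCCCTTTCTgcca
Rpl35, chr2:39005112-39005141, minus strand: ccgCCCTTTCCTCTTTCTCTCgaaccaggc
Rpl28, chr7:4792955-4792984, plus strand: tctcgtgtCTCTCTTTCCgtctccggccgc
Rplp2, chr7:141447641-141447670, plus strand: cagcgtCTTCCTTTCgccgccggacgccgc
Rps6, chr4:86857348-86857377, minus strand: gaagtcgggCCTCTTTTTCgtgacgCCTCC
Rpl22l1, chr3:28805498-28805527, plus strand: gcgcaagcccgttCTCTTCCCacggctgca
Rps27, chr3:90213629-90213658, minus strand: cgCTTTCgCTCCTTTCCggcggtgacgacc
Rps27rt, chr9:114982720-114982749, minus strand: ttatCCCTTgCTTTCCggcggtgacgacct
Rpl27a and Rpl35 have long unbroken tracts, and the tract of Rplp2 is shorter. The window of Rps6, the ribosomal protein phosphorylated by the S6 kinases, holds separate tracts. A RefSeq start was matched for 66 members. Over the 40 bases around the start, 20 on each side, the letters CTTTC occurred on either strand in 23 of the 66 members (34.8%), against 11.8% of all 27025 genes with a start. On the gene's own strand the shares were 30.3% and 6.44%. The longest pyrimidine run near the start had a median of 7 bases in the members and 5 in all genes. A match describes the letters in the window and no more.

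The coding sequences of the Rps27 family are shown because they bear on the assignment of fragments described further on. They are on GRCm38 with GENCODE M21 exons and run 5′ to 3′ from the start codon without the stop codon, with capitals in Rps27l at bases that differ from Rps27. Rps27 is spliced from 4 coding exons (chr3:90212728-90213615, minus strand), Rps27rt is a single coding exon (chr9:114982456-114982707, minus strand), and Rps27l has 4 coding exons (chr9:66946175-66949354, plus strand).
Rps27 and Rps27rt: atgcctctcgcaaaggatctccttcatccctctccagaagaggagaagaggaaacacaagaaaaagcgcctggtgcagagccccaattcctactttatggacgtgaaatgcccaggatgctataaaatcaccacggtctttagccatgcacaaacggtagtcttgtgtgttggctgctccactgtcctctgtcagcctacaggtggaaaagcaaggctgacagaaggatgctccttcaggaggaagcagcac
Rps27l: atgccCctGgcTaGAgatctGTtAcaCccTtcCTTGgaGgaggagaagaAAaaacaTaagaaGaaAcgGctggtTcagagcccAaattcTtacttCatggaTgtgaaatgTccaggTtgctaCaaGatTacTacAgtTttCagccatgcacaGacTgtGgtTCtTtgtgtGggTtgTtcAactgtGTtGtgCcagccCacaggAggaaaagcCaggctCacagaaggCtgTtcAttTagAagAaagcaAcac
Rps27 and Rps27rt were equal at 252 of 252 coding bases. Rps27l was equal to Rps27 at 192 bases and different at 60, an identity of 76.2%.

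Ribosomal protein genes were among the highly expressed genes of the liver. The median of the 80 tested members was 87.6 FPKM, against 5.13 FPKM over all tested genes, and the small subunit had a higher median (117 FPKM) than the large subunit (77.8 FPKM). Mean levels were above 100 FPKM in 36 members, between 10 and 100 in 41 and between 1 and 10 in 3. The highest means were those of Rplp1, a protein of the stalk that recruits elongation factors (738 FPKM), Rpl36 (391 FPKM), Rps3a1 (334 FPKM) and Rps15 (292 FPKM). Neighbours in this order overlapped in their range over the 18 mice. The lowest tested members were Rpl13a (5.15 FPKM), Rpl21 (6.93 FPKM), Rpl22l1 (7.75 FPKM) and Rps19bp1 (10.1 FPKM).

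**Figure D1:**
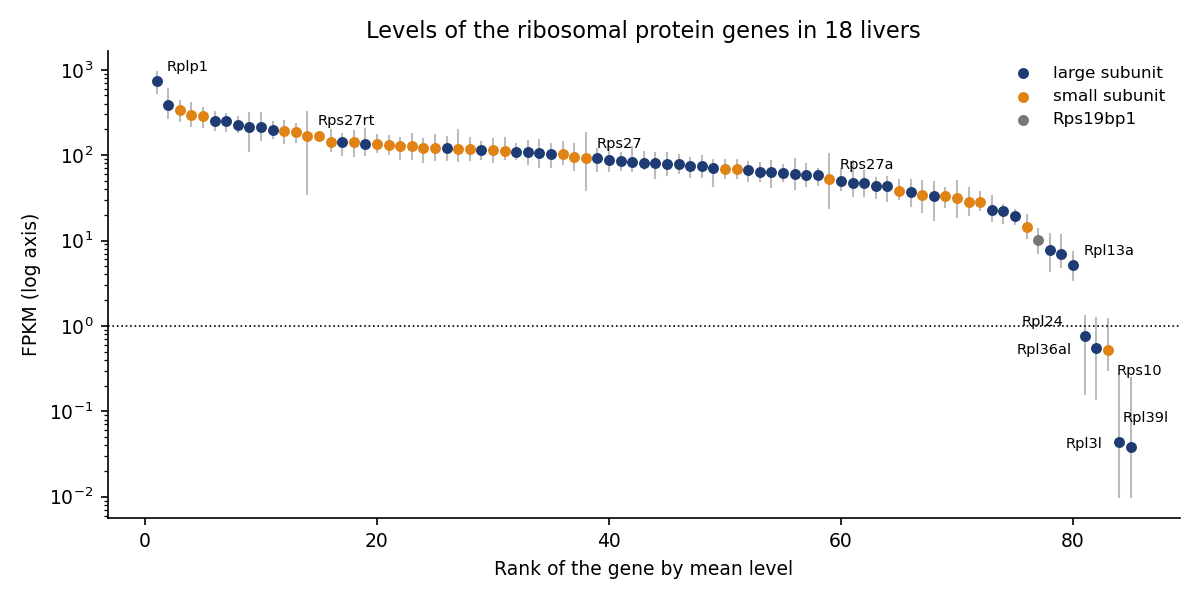
Mean FPKM of each ribosomal protein gene over the 18 livers on a log axis against its rank, with bars from the lowest to the highest mouse drawn down to 0.01 FPKM at least and the filter of 1 FPKM dotted. Rpl10l is listed at 0 in every mouse and is not drawn, 5 genes lie under the filter, and Rps27rt, Rps27 and Rps27a have the longest bars among the tested genes.

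The 6 members under 1 FPKM included 3 paralogs known from other tissues. Rpl10l, the testis paralog of Rpl10, was listed at 0 in all 18 mice. Rpl39l, also known from testis, and Rpl3l, the paralog of Rpl3 in skeletal and heart muscle, had means of 0.0381 and 0.0442 FPKM. Rpl36al (0.550 FPKM), Rps10 (0.527 FPKM) and Rpl24 (0.762 FPKM) were low as well. Rps10 and Rpl24 are genes that every cell uses, and part of their exons lies in another gene on the same strand, 20.6% of Rps10 in the read-through gene RPS10-NUDT3 and 47.0% of Rpl24 in Gm28037. The processed copy Rps10-ps2 stood at a mean of 118 FPKM, so the level listed for Rps10 is that of the fragments assigned to this gene rather than of all fragments with its sequence.

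Shared sequence was common in the family. A median of 35.8% of a member's 50-base stretches also occurred in the transcripts of another gene, up to 95.1% for Rpl35, and 29 members shared over 50%. Members without a shared stretch included Rpl3l, Rpl39l and Rps19bp1. In 11 members the main copy had a higher mean level than the gene itself, as for Rpl17 (47.1 FPKM, against 162 FPKM for Rpl17-ps10), Rpl21 (6.93 against 62.0 FPKM for Rpl21-ps15), Rps12 (28.6 against 88.4 FPKM for Rps12-ps3) and Rps27 (92.0 against 169 FPKM for Rps27rt). Results are therefore given for the genes as listed and, where this changes them, after the fragments of the copies were added to the member, an alternative chosen after seeing the data.

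Mice differed little in most members. The highest mouse was a median of 1.81 times the lowest, and Rps27l was the steadiest member with a ratio of 1.19. The ratio was above 3 in Rps27rt (9.10), Rps27 (4.70) and Rps27a (4.22) alone among tested members. With copies added, the median was 1.77, and 1 member remained above 3.

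To see whether the high-fat diet changed the family, HFD livers were compared with NC livers. On the deposited scale ribosomal protein genes were lower in HFD livers, in both subunits. Of the 80 tested members, 35 (43.8%) were lower by limma, with an adjusted p under 0.05 plus a change of more than 1.2 times, and none was higher. Among all tested genes 20.2% were called, 9.49% lower and 10.7% higher. The 35 consisted of 18 large subunit and 17 small subunit genes. The median log2 fold change was -0.32 over the members (-0.31 for the large and -0.34 for the small subunit), against -0.03 over all tested genes, and 77 of the 80 were below 0 compared with 54.9% of all genes. Apart from Rps27 and Rps27a, the called members were 17.8% to 32.7% lower. Rps27rt (1.10), Rps27l (0.03) and Rpl21 (0.01) had log2 fold changes above 0 and were not called.

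The summed level of all 86 members ranged from 7750 to 11352 FPKM in NC with a median of 9752, and from 6835 to 8544 with a median of 8037 in HFD. The groups overlapped. In 18 members the lowest NC mouse was above the highest HFD mouse, as in 4.97% of all tested genes, and in none the other way round, as in 5.48% of all tested genes. Placed against the mean of each gene over the 18 mice, 57 to 79 of the 80 members were below their mean in an HFD mouse, 2 to 65 in an NC mouse and 2 to 72 in an SZ-A mouse. The highest NC count was that of NC1.

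**Figure D2:**
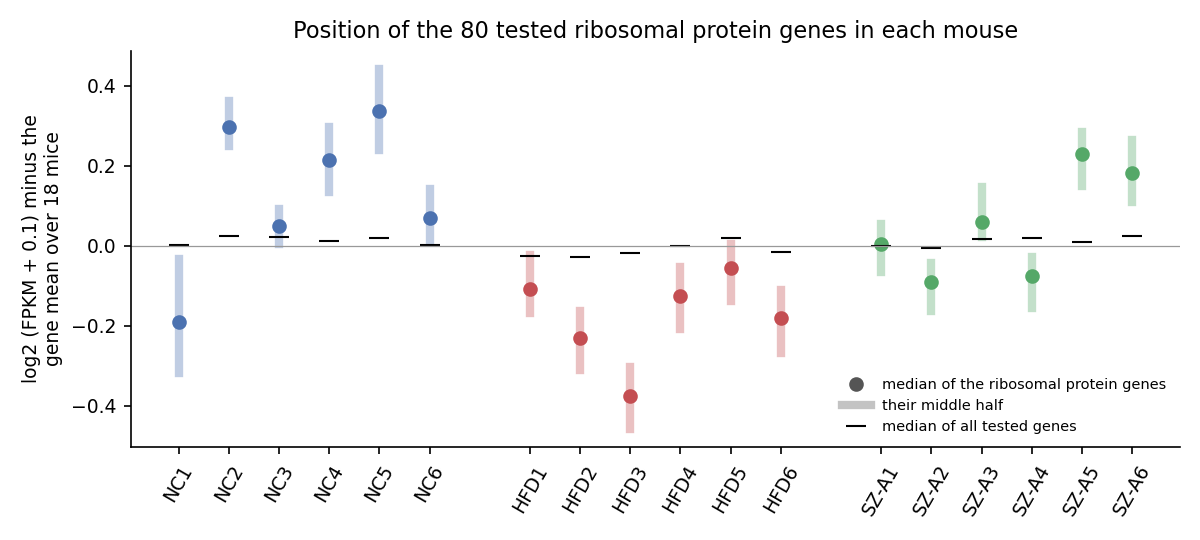
Median deviation of the 80 tested ribosomal protein genes from each gene's mean over the 18 mice, in log2 units, for every mouse, with bars over the middle 50 percent of the genes and a black dash for the median of all tested genes. All 6 HFD mice lie below 0, from -0.37 to -0.06, and NC1 at -0.19 is the only NC mouse below 0.

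Among the stalk proteins, Rplp0, the base of the P stalk, ranged from 244 to 323 FPKM in NC (median 283) and from 195 to 231 in HFD (median 216). Rplp0 did not overlap between the groups and was 23.2% lower in HFD (log2 fold change -0.38, SE 0.0828, limma adjusted p = 0.0061). Its partners on the stalk did not pass. Rplp1 had a log2 fold change of -0.21 (adjusted p = 0.251) and Rplp2 of -0.32 (adjusted p = 0.14). Without NC1 both Rplp1 and Rplp2 were called lower as well. Rpl12 (chr2:32961559-32965345, plus strand), which sits at the base of the stalk, had a median of 43.7 FPKM in NC with the highest mouse at 51.1, against 25.7 to 33.4 in HFD (median 29.4). Rpl12 was 32.7% lower (log2 fold change -0.57, SE 0.11, limma adjusted p = 0.00302) with no overlap, the furthest of the large subunit.

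Rpl5 and Rpl11 bind the 5S RNA and, outside the ribosome, the p53 regulator Mdm2. Rpl5 ranged from 63.1 to 83.8 FPKM in NC (median 73.1) and from 50.5 to 62.4 in HFD (median 58.1). Rpl5 fell without overlap (log2 fold change -0.35, SE 0.0884, limma adjusted p = 0.0146), whereas Rpl11 at -0.23 did not pass (adjusted p = 0.143). Without NC1, Rpl11 was called lower as well. The difference between these partners was not tested.

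Elsewhere in the large subunit, Rpl10a, the protein of the L1 stalk near the exit of the tRNA, ranged from 73.3 to 98.3 FPKM in NC and from 55.8 to 65.5 in HFD and fell by 0.46 on the log2 scale (SE 0.0883, limma adjusted p = 0.00312). Rpl4, which lines the tunnel of the growing peptide, ranged from 253 to 304 FPKM in NC and from 192 to 237 in HFD. Rpl4 was 22.1% lower (limma adjusted p = 0.00571), and both genes separated the groups. Rpl3, close to the peptidyl transferase centre, ranged from 68.8 to 88.5 FPKM in NC and from 43.5 to 67.6 in HFD and was 26.6% lower (limma adjusted p = 0.0189). Rpl36, the second highest member, had a log2 fold change of -0.44 that did not pass (adjusted p = 0.055), with NC mice from 281 to 591 FPKM and HFD mice from 272 to 376. Without NC1 or without HFD5, Rpl36 was called lower.

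In the small subunit, Rpsa, also known as the laminin receptor, ranged from 117 to 157 FPKM in NC and from 86.6 to 111 in HFD and fell by 0.45 on the log2 scale (SE 0.0957, limma adjusted p = 0.00545). Rps6 ranged from 188 to 233 FPKM in NC and from 144 to 180 in HFD. Rps6 was 21.2% lower (limma adjusted p = 0.00991), and neither Rpsa nor Rps6 overlapped between the groups. Rps14, part of the platform of the subunit, was 27.1% lower (limma adjusted p = 0.0107) and Rps18, in the head of the subunit but not in the list of 3 head and decoding proteins used next, 25.4% lower (limma adjusted p = 0.0127). Rps3a1 and Rps15, the most abundant genes of the small subunit, were 21.7% and 20.5% lower (limma adjusted p = 0.0238 and 0.0354). Rps3a1 lost its call without HFD3, NC2 or NC4. Rps15 lost its call without HFD1, HFD2, HFD3, HFD6, NC2, NC4 or NC5.

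Counts in structural and disease groups are given as a description, beside 43.8% of all members and 9.49% of all tested genes called lower, and differences between the groups were not tested. The called members were 1 of 3 proteins of the P stalk (Rplp0), 1 of 3 that line the tunnel (Rpl4), 1 of 5 around its exit (Rpl35), 1 of 3 in a list of head and decoding proteins (Rps15, with Rps12 and Rps23 not called) and 0 of 2 at the entry of the messenger RNA. Genes mutated in Diamond-Blackfan anaemia, an inherited failure of red cell production, were called in 4 of 10 tested, Rps24, Rps26 and Rpl5 among them. Of these groups, Rplp1, Rplp2, Rpl19, Rpl23a, Rpl39, Rps3, Rps23, Rpl11, Rpl15 and Rps7 were called as well without NC1. Rps12 was called without HFD1, HFD4 or NC3. The calls of Rpl35 and Rps15 were lost without several single mice, HFD1, HFD2 and HFD3 among them. Among members with over 50% of their stretches shared, 14 of 28 were called, and among the others 21 of 52. Of members with the CTTTC letters on either strand, 9 of 20 tested were called. Rps19bp1, which is no ribosomal protein, ranged from 8.66 to 13.6 FPKM in NC and from 7.23 to 10.7 in HFD and had a log2 fold change of -0.18 (limma adjusted p = 0.323).

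**Figure D3:**
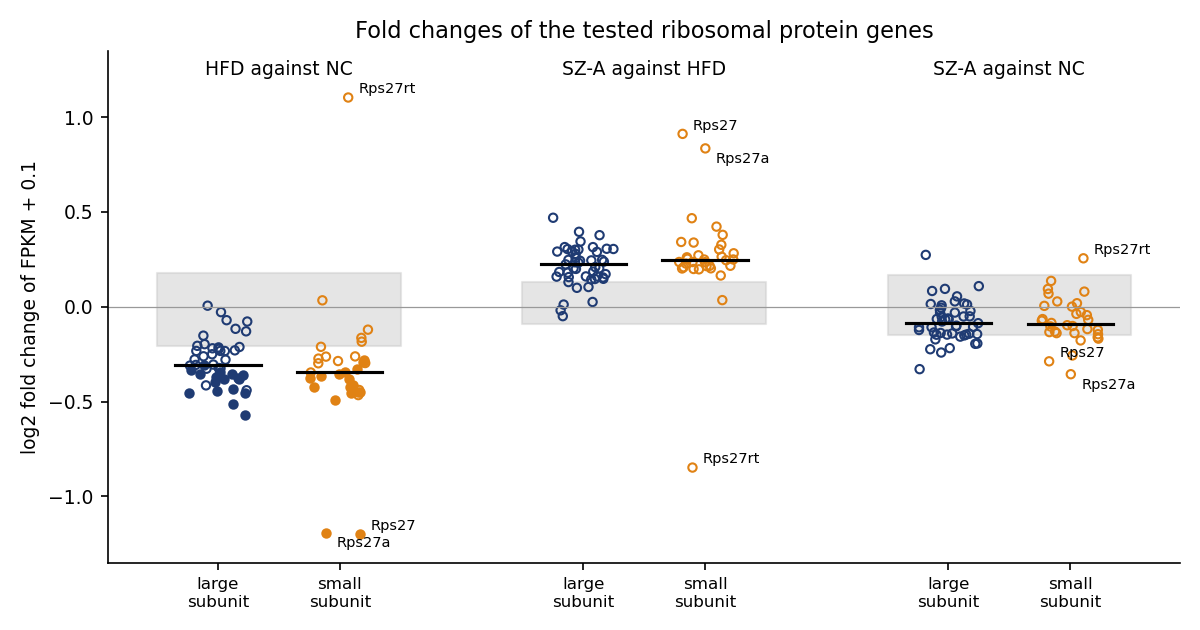
Log2 fold change of FPKM plus 0.1 for each tested large (blue) and small (orange) subunit gene in the 3 comparisons on the deposited scale, with filled circles for called genes, black lines at the medians and grey boxes over the middle 50 percent of all tested genes. HFD against NC has 35 filled circles below 0 and medians of -0.31 and -0.34, SZ-A against HFD has none filled and medians of 0.22 and 0.25, and SZ-A against NC has none filled.

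The number of called genes rested on the scale and on single mice. Summed over all genes, FPKM had a median of 372146 in HFD and 428521 in NC, and after every mouse was set to a common total 5 members were called lower, Rpl12, Rps27 and Rps27a among them, with a median of -0.12 while that of all tested genes was 0.15, and 67 of 80 members below 0. The members thus lay 0.28 log2 units under the median gene on either scale (values of -0.28), whereas the calls over all genes went from 1092 higher and 970 lower to 2100 higher and 334 lower (3.27%). Without NC1 the count was 55 and without NC2 it was 23. With copies added it was again 35, of which 32 were shared, with Rpl27a, Rpl34 and Rps7 in place of Rpl35, Rps20 and Rps27. Markers of other cells moved between these groups as well. The summed level of 7 hepatocyte markers ranged from 44513 to 63520 FPKM in NC and from 30044 to 49703 in HFD, with 4 of 7 lower. That of 6 Kupffer cell and macrophage markers ranged from 63.0 to 119 FPKM in NC and from 89.7 to 190 in HFD, with 2 of 6 higher, and that of 6 stellate cell markers from 6.19 to 9.67 and from 10.8 to 39.99 FPKM, with 5 of 6 higher. Of all tested genes, 10.7% were called higher and 9.49% lower. Whether single stellate cell markers reached the filter only through the HFD mice was not examined. Among 5 endothelial markers 1 was higher, 0 of 5 red blood cell markers and neither the 1 tested marker of B cells nor the 1 of cholangiocytes were called, no T cell marker reached the filter, and no marker was at 0 in all mice of a group. Their part in the result was not tested.

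To see what the alkaloids changed under the diet, SZ-A livers were compared with HFD livers. Most ribosomal protein genes had higher values with SZ-A, but none passed the adjusted test. Of the 80 members, 0 were called by limma, compared with 0.147% of all tested genes. At an unadjusted p under 0.05 there were 52 members, against 14.8% of all genes, and with the fold change over 1.2 in addition there were 26, against 9.03% of all genes. The smallest adjusted p of a member was 0.0961. The median log2 fold change was 0.24 over the members (0.22 for the large and 0.25 for the small subunit) and 0.03 over all tested genes, and 77 of 80 members were above 0 compared with 56.2% of all genes. In 12 members every SZ-A mouse was above every HFD mouse, as in 0.793% of all tested genes, and in none below, as in 0.489%.

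The summed level of the members ranged from 8078 to 10339 FPKM in SZ-A with a median of 9257, and its lower end overlapped the HFD range. Rpl22l1 ranged from 7.87 to 10.4 FPKM in SZ-A and from 4.44 to 7.20 in HFD, a log2 fold change of 0.47 (SE 0.111, limma adjusted p = 0.0977). Its groups did not overlap. Rps18 ranged from 115 to 153 FPKM in SZ-A and from 84.2 to 110 in HFD (log2 fold change 0.38, limma adjusted p = 0.0999). Rps14 ranged from 179 to 221 FPKM in SZ-A and from 138 to 175 in HFD (log2 fold change 0.34, limma adjusted p = 0.0999). Both also separated the groups. Rpl12 overlapped by a small margin, with 33.2 to 43.1 FPKM in SZ-A against 25.7 to 33.4 in HFD (log2 fold change 0.38, limma adjusted p = 0.0999).

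The 3 members below 0 were Rps27rt (-0.85), Rpl17 (-0.05) and Rpl41 (-0.02). Rpl41, which encodes the shortest ribosomal protein, ranged from 112 to 256 FPKM in SZ-A and from 115 to 253 in HFD. With the copies added to each member, all 80 were above 0. Rps27 and Rps27rt then held the same fragments, because each counted as a copy of the other. The absence of calls held with voom on the recovered fragments (0 members) and without any single mouse, whereas 7 members were called when mice were weighted by their spread, against 2.28% of all genes (108 higher and 125 lower), among them Rpl10, Rpl35a, Rpl36, Rps13, Rps14 and Rps18. With a common total of FPKM the median was 0.06, with -0.15 over all tested genes and 61 members above 0, and the calls over all genes went from 8 higher and 7 lower to 10 higher and 206 lower. Hepatocyte markers summed to 35524 to 61801 FPKM in SZ-A with 0 of 7 called. Of the other markers, 1 of 6 for macrophages was lower and 0 of 6 for stellate cells were called, against 0.147% of all tested genes. The part of these markers was not tested.

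To see how far the SZ-A livers differed from lean livers, they were compared with NC. None of the 80 members was called by limma, compared with 9.60% of all tested genes, and voom called 0. At an unadjusted p under 0.05 there were 2 members, both below 0, against 25.5% of all genes. The median was -0.09 over the members and -0.01 over all tested genes, with 60 of 80 members below 0 compared with 51% of all genes. No member separated the groups, compared with 2.67% of all genes lower and 2.83% higher in SZ-A. With mice weighted by their spread, 1 member was called, against 16.5% of all genes. By their means, HFD was lowest of the 3 groups in 76 of 80 members (40.7% of all tested genes), NC was highest in 62 (43.7%), and SZ-A lay between NC above and HFD below in 62 (28.8%). These counts describe means and carry no test.

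The Rps27 family departed from the other members. Rps27 ranged from 51.1 to 184 FPKM in NC (median 124) and from 39.2 to 84.3 in HFD (median 46.9), while SZ-A mice ranged from 42.3 to 171 (median 97.4). Its single-exon copy Rps27rt had the opposite order of medians, with 60.5 to 267 FPKM in NC (median 74.5) and 51.8 to 319 in HFD (median 267), while SZ-A mice ranged from 35.03 to 309 (median 167). All 3 groups overlapped in both genes. Rps27 was lower in HFD than in NC (log2 fold change -1.20, SE 0.268, limma adjusted p = 0.00709), and Rps27rt had a log2 fold change of 1.10 that did not pass (SE 0.461, adjusted p = 0.105). Without NC3 or without HFD2 the Rps27rt value was 1.41 or 1.49 and was called.

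The split of fragments within the pair differed from mouse to mouse. Rps27rt took 10.6% to 65.2% of the fragments of both genes in NC (median 17.7%) and 18.1% to 71.9% in HFD (median 65.9%), while the SZ-A share was 8.60% to 72.4% (median 33.5%). Its share was above 50% in 1 of 6 NC mice (NC3), 5 of 6 HFD mice (all but HFD2) and 3 of 6 SZ-A mice. The sum of the pair varied much less, from 139 to 215 CPM (fragments scaled to the library) for NC mice, 107 to 166 for HFD mice and 137 to 199 for SZ-A mice, with the highest of the 18 mice at 2.003 times the lowest. With the copies added to Rps27, the log2 fold change in HFD was -0.28 (SE 0.135, limma adjusted p = 0.164), which is no call. Since the coding sequences shown above are equal, the source of these fragments cannot be told apart within the coding region.

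**Figure D4:**
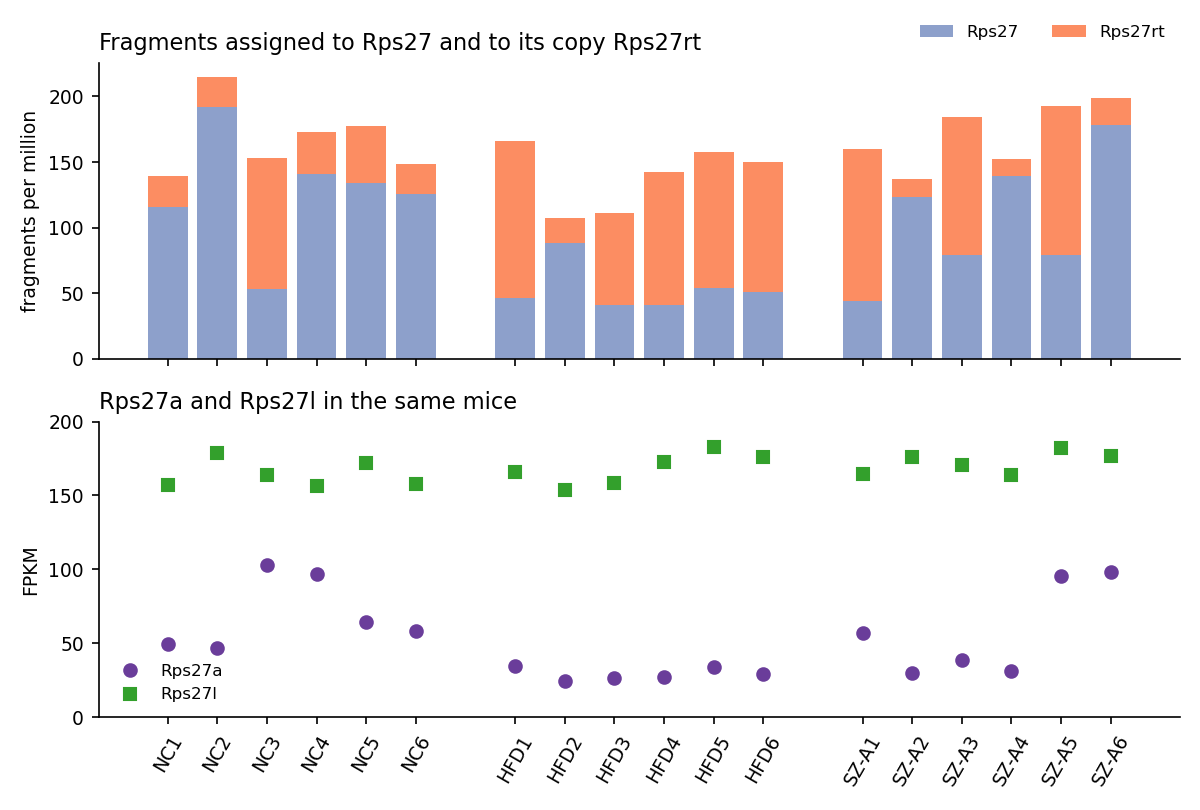
Fragments in CPM of Rps27 and Rps27rt, stacked for each of the 18 mice, above the FPKM of Rps27a and Rps27l in the same mice. The stacks reach 107 to 215 while the split between the genes differs, Rps27a lies at 24.3 to 34.5 FPKM in the 6 HFD mice, and Rps27l stays between 154 and 183 FPKM.

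Rps27a (chr11:29545846-29548109, minus strand) encodes a different protein from Rps27, despite its name. It is made as a fusion of ubiquitin with a protein of the small subunit and is one of the genes that supply the cell with ubiquitin. Rps27a ranged from 47.2 to 103 FPKM in NC (median 61.4) and from 24.3 to 34.5 in HFD (median 28.1), while SZ-A mice ranged from 30.2 to 98.2 (median 47.96). NC and HFD did not overlap, and Rps27a was 56.2% lower in HFD (log2 fold change -1.19, SE 0.192, limma adjusted p = 0.00103). It was the smallest adjusted p of any member, and with copies added the value was -1.15 (limma adjusted p = 0.000782). In SZ-A against HFD the log2 fold change was 0.84 and did not pass (limma adjusted p = 0.204), with SZ-A5 and SZ-A6 near the top of the NC range and SZ-A2 and SZ-A4 inside the HFD range. Rps27l, by contrast, was level, at 156 to 179 FPKM for NC mice, 154 to 183 for HFD mice and 164 to 182 for SZ-A mice.

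Rpl17, which touches the tunnel exit, also differed between mice in its split with the copy Rpl17-ps10. Rpl17 stood at 80.8 and 64.5 FPKM in HFD4 and HFD5 and at 86.5 FPKM in SZ-A6, against 33.7 to 57.6 FPKM in the other mice. Rpl17-ps10 stood at 80.7, 135 and 140 FPKM in these 3 mice. With copies added, the log2 fold change of Rpl17 in HFD against NC went from -0.03 to -0.26 (SE 0.078, limma adjusted p = 0.0331), under the fold change asked for.

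Paralogs were compared with their partners as the log2 ratio of both genes in a mouse, in 4 pairs and 3 comparisons, with exact two-sided permutation tests whose smallest p is 0.00216. Rpl22l1 (chr3:28805436-28807424, plus strand) stood at 14.8% to 21.7% of Rpl22 in NC (median 19.2%) and 11.3% to 17.8% in HFD (median 16.2%), while the SZ-A mice stood at 17.2% to 23.9% (median 19.3%). The Rpl22l1 to Rpl22 ratio was higher in SZ-A than in HFD by 0.37 log2 units (SE 0.124, exact permutation p = 0.00649, 0.039 adjusted over the 12 tests), with overlap between the groups. The difference of HFD from NC was -0.30 and did not pass (exact permutation p = 0.039, adjusted 0.117). Rpl22 itself stood at 31.8 to 54.2 FPKM for NC mice, 37.8 to 46.0 for HFD mice and 40.7 to 47.8 for SZ-A mice. The call held without HFD2, SZ-A3 or SZ-A6 and was lost without any other single mouse and when copies were summed (adjusted p = 0.0779, exact permutation test). With copies summed the difference was still 0.37 and the unadjusted exact permutation p still 0.00649. Only the adjustment changed, because the Rps27l to Rps27 test of HFD against NC went from exact permutation p = 0.00433 to 0.0173. The adjusted value of 0.039 thus rests on that other pair.

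**Figure D5:**
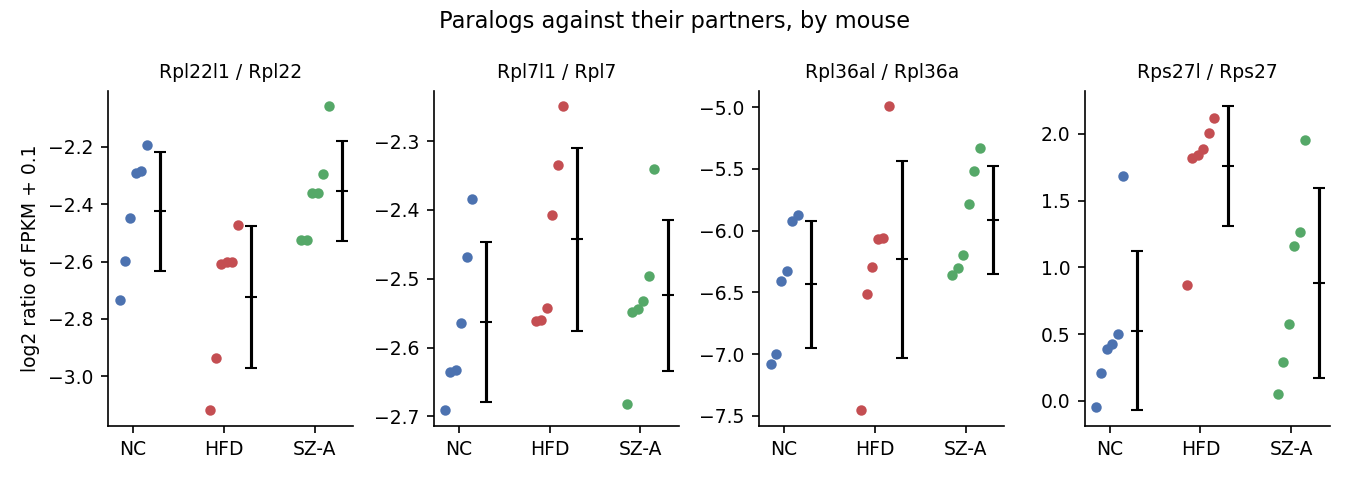
Log2 ratio of FPKM plus 0.1 of each paralog to its partner, a point per mouse sorted within its group, with the mean and SD (n = 6) beside the points. By group means, Rpl22l1 against Rpl22 is lowest in HFD and Rps27l against Rps27 is highest in HFD, where HFD2 lies at 0.87. Every pair overlaps between all groups.

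The Rps27l to Rps27 ratio was higher in HFD than in NC by 1.23 log2 units (SE 0.306, exact permutation p = 0.00433, adjusted 0.039), with NC3 and HFD2 inside the range of the other group, and the call was lost without any single mouse other than these. After the copies were added to Rps27, the difference was 0.31 (exact permutation p = 0.0173, adjusted 0.104). Rpl7l1, a nucleolar relative of Rpl7, stood at a median of 16.4% of Rpl7 for NC mice, 17.9% for HFD mice and 17.1% for SZ-A mice, and its ratio differed by 0.12 (SE 0.0721) between HFD and NC. Rpl36al stood at a median of 1.01%, 1.07% and 1.36% of Rpl36a, at levels of 0.140 to 1.24 FPKM. Neither pair passed in any comparison. The ratio tests rest on few mice per group, and Rpl39l, Rpl3l and Rpl10l were too low for a ratio.

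The balance of the subunits was described by the summed FPKM of large over small subunit genes. Over all members the ratio was 1.30 to 1.38 for NC mice (median 1.37), 1.31 to 1.40 for HFD mice (median 1.33) and 1.30 to 1.348 for SZ-A mice (median 1.33), and all groups overlapped. With 1 gene per protein, which leaves out Rps27rt and the other paralogs, it was 1.40 to 1.46 for NC mice, 1.49 to 1.54 for HFD mice and 1.42 to 1.47 for SZ-A mice, so the HFD mice lay above all others. Without Rps27 and Rps27a as well, the ranges were 1.48 to 1.53, 1.54 to 1.58 and 1.49 to 1.53, and with copies added they were 1.48 to 1.51, 1.51 to 1.56 and 1.47 to 1.502. HFD kept the highest median in these 3 versions, and no test was made of a sum over members.

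Other genes of the pathway were read from lists that were drawn up with earlier results of these data known. Ribosomal proteins outside the name rule include Fau, made as a fusion with a ubiquitin-like protein, and Rack1, a scaffold on the small subunit. Rack1 was lower in HFD than in NC (log2 fold change -0.34, limma adjusted p = 0.0138), and Fau at -0.38 did not pass (adjusted p = 0.0516). Of 18 factors whose messages carry a TOP motif, 5 were lower in HFD, compared with 9.49% of all tested genes, and all had values below 0, with a median of -0.26. Hnrnpa1, an RNA-binding protein of splicing, ranged from 15.7 to 25.3 FPKM in NC and from 10.1 to 14.5 in HFD and fell by 0.77 on the log2 scale (limma adjusted p = 0.00102). Tpt1, Btf3, Eef1b2 and Naca were the others.

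Initiation factors were called lower in 9 of 22 and higher in none, compared with 9.49% and 10.7% of all tested genes, with a median of -0.26. Eif1, which guards the choice of the start codon, ranged from 175 to 252 FPKM in NC and from 134 to 161 in HFD, without overlap (log2 fold change -0.46, limma adjusted p = 0.004). Ribosome biogenesis genes were called lower in 3 of 40 and higher in 1, which is no larger a share than the 9.49% and 10.7% of all tested genes, with a median of -0.23. Ubtf, a factor of ribosomal RNA transcription, fell by 0.39 on the log2 scale (limma adjusted p = 0.00139), and Riok2, a kinase of small subunit maturation, rose by 0.46 (limma adjusted p = 0.00923). Among 15 tested regulators, Larp1 was called lower and Eef2k higher. Larp1, which binds the TOP motif, ranged from 24.8 to 30.2 FPKM in NC and from 18.9 to 23.5 in HFD (log2 fold change -0.43, limma adjusted p = 0.00139). Eef2k, the kinase that restrains elongation, ranged from 0.478 to 0.735 FPKM in NC and from 0.893 to 1.69 in HFD. It reached the filter only through the HFD and SZ-A mice, so these values are a description and its call supports nothing. Larp1 separated NC from HFD and was also called in SZ-A against NC, at -0.33 (limma adjusted p = 0.00752). Apart from Eef2k, further calls in SZ-A against NC were Nap1l1, Wdr43 and Eif1ax lower and Riok2 higher. In SZ-A against HFD no gene of these lists was called by limma, and the medians were 0.21, 0.19, 0.09, 0.07 and -0.02 in the order given.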

How the data were processed

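Poly(A) RNA of 18 mouse livers (6 NC, 6 HFD, 6 SZ-A) was sequenced as paired-end libraries. Per the submitters' processing notes, reads were mapped with HISAT2 2.0.5 to mm10 (GRCm38) and counted with featureCounts 1.5.0-p3, and the authors deposited FPKM values per gene and mouse, which were used as deposited. The handling of fragments that match several genes is not given in the sources used here. Every FPKM value corresponded to a whole number of fragments within 0.05 (100% in each mouse), which gave 17163191 to 20493907 fragments per mouse. The denominator behind the FPKM was 0.933 to 1.02 times these fragments in NC, 0.998 to 1.14 times in HFD and 0.972 to 1.05 times in SZ-A. The number of mice and the fragments of each gene limit the precision.

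Log2 of FPKM plus a pseudocount of 0.1 was fitted with limma 3.58.1 in R 4.3.3 (lmFit, eBayes with trend) on the 2 groups of each comparison, over 10216 genes with a mean of at least 1 FPKM. Calls required a Benjamini-Hochberg adjusted p under 0.05 over all genes and a fold change over 1.2, with 6 mice per group as replicates. Ratios of paralogs were compared by exact two-sided permutation and adjusted over 12 tests. Copies were found from 50-base stretches shared between GENCODE M21 transcripts. A gene elsewhere counted as a copy where at least 30% of its own stretches were shared with the member. Named members were the 5 with the smallest p in each comparison, the 4 highest and 4 lowest, paralog pairs, a set of known roles (stalk proteins, Rpsa, Rpl5, Rpl11, Rps6, Rps27a, Rps19bp1) and those against the main direction in SZ-A against HFD. Other members named in the text were chosen after their values were seen. A few members picked by it are not reported here. Members, lists and rules were chosen with earlier results of these data known. Alternatives were other pseudocounts, filters, scalings, fits and left-out mice, and, chosen after seeing the data, summed copies. The fits were tested on simulated data. Other tools were Python 3.11.15, numpy 2.4.6, pandas 2.3.3, matplotlib 3.10.9 and the R package data.table (version 1.17.8).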

Additional observations from a re-analysis of the deposited data

Results flagged for a closer look

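A mouse stood far from the other 5 of its group, by Dixon's criterion of 0.625, in 11 of 138 checked combinations of member or ratio and group, where chance gives about 1 in 20, or 6.9. Rpl17 in SZ-A6 was 86.5 FPKM, with the others at 33.7 to 40.7. Rpl21 in HFD5 was 11.5 FPKM, with the others at 4.85 to 6.96, and Rpl36al in the same mouse was 1.24 FPKM, with the others at 0.140 to 0.456. Rpl22l1 in SZ-A1 was 10.4 FPKM, with the others at 7.87 to 8.46. Rpl39l, at or near 0 elsewhere, was 0.119 FPKM in NC4, 0.242 in HFD4 and 0.203 in SZ-A1. Rps27 in HFD2 was 84.3 FPKM, with the others at 39.2 to 51.7, and Rps27rt in NC3 was 267 FPKM, with the others at 60.5 to 117. The log2 ratio of Rps27l to Rps27 was 1.68 in NC3, with the others at -0.04 to 0.50, and 0.87 in HFD2, with the others at 1.82 to 2.12. NC3 and HFD2 were the mice whose split of fragments between Rps27 and Rps27rt differed from the rest of their groups.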

How the results depend on the processing

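Counts of called members in HFD against NC were 5 with FPKM set to a common total, and 23 to 55 without a single mouse. In SZ-A against HFD they were 26 at an unadjusted p under 0.05 with the fold change and 7 with sample weights, and in SZ-A against NC 1 with sample weights. Under the common total the median of the members was -0.12 in HFD against NC and 0.057 in SZ-A against HFD. Paralog ratios past the threshold were 0 in SZ-A against HFD and in HFD against NC with a pseudocount of 1, the replicate block or summed copies, and 0 to 1 without a single mouse. The exact sign-flip test under the block could not go below p = 0.03125 before adjustment over 12 tests, so its count of 0 says nothing on stability. The median ratio of large to small subunit in fragments was highest in HFD (1.333), against 1.31 for NC and 1.30 for SZ-A, whereas in FPKM NC was highest (1.37). With 1 gene per protein it was 1.45, 1.5005 and 1.44 in NC, HFD and SZ-A, without Rps27 and Rps27a 1.52, 1.55 and 1.51, and with copies summed 1.49, 1.53 and 1.499. Replicate numbers did not pair the mice (correlations of same-numbered mice -0.12 to 0.29 over 18 pairs). A replicate block called 29 members in HFD against NC and 0 in SZ-A against HFD. Causes of these changes were not tested.

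Under the common total 16 of 80 members had the other sign in SZ-A against HFD and 10 of 80 in HFD against NC. Among the named members and pairs, signs changed as follows. Under the common total they were, in SZ-A against HFD, Rpl13a -0.027, Rpl21 -0.16, Rpl22 -0.078, Rpl23 -0.022, Rpl7l1 -0.073 and Rps27l -0.14, and in HFD against NC Rpl17 0.16, Rpl22 0.076 and Rps19bp1 0.014. Median-ratio scaling gave Rpl21 -0.011 in SZ-A against HFD. With the length trend removed, Rpl21 was -0.0044, -0.0016 and -0.0060 in SZ-A against HFD, HFD against NC and SZ-A against NC, Rplp1 and Rps19bp1 were -0.038 and -0.037 in SZ-A against NC, and Rps27l was -0.029 in SZ-A against HFD. Sample weights gave Rpl41 0.026 in SZ-A against HFD and Rplp2 0.014 in SZ-A against NC. Summed copies gave Rpl17 0.20, Rpl41 0.14 and Rps27rt 0.30 in SZ-A against HFD, Rpl21 -0.19, Rps27rt -0.28 and the Rpl36al to Rpl36a ratio -0.12 in HFD against NC, and Rpl21 -0.068 and Rps27 0.028 in SZ-A against NC. A pseudocount of 1 gave the Rpl36al to Rpl36a ratio -0.075 in SZ-A against HFD. Without a single mouse, ranges across 0 in HFD against NC were -0.19 to 0.057 for Rpl17, -0.15 to 0.10 for Rpl21 and -0.046 to 0.45 for the Rpl36al to Rpl36a ratio, and in SZ-A against HFD -0.25 to 0.12 for Rpl17, -0.089 to 0.16 for Rpl21 and -0.17 to 0.14 for Rpl41. In SZ-A against NC they were -0.083 to 0.087 for Rpl21, -0.11 to 0.040 for Rpl22, -0.076 to 0.16 for Rpl22l1, -0.10 to 0.0045 for Rpl36a, -0.16 to 0.040 for Rpl39, -0.075 to 0.090 for Rplp1, -0.12 to 0.079 for Rplp2, -0.041 to 0.088 for Rps19bp1 and -0.041 to 0.59 for Rps27rt.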
